A study of Mus musculus with 24 samples.

Results

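H2-Eb1, H2-Aa and H2-Ob are the 3 mouse MHC class II chain genes described here. Each was represented by 1 probe, so they were 3 of 8750 measured features, of which 5908 carried a single gene symbol. The genes were selected on their levels by strain and on their changes from control in lung and skin of these same arrays, so those values are given as a description and are not tested. Tissue came from females aged 12 to 13 weeks of C3H/HeMs, C57BL/6J and A/J, which are inbred. Lung was taken at 1 h, 12 h and 72 h after 10 Gy of gamma rays to the thorax, and from mice that were not irradiated. Skin was taken in full thickness at the same times after 30 Gy to the hind leg, again with skin of mice that were not irradiated. Every array held RNA pooled from 3 mice of 1 strain, 1 array per strain, tissue and time, against a reference of RNA mixed from 10 organs. Each group therefore had 3 arrays that differ in strain, so a p-value rests on the spread from strain to strain and not from mouse to mouse. All levels below are log2 ratios of sample over reference. They compare arrays for 1 gene, not 1 gene with another.

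MHC class II molecules are pairs of an alpha and a beta chain that present peptides from the endosomes to CD4 T cells. H2-Aa encodes the alpha chain of I-A, and H2-Eb1 encodes the beta chain of I-E. H2-Ob encodes the beta chain of H2-O, a chaperone that restrains the peptide exchange factor H2-M and is made mostly by B cells. The classical chains are made by dendritic cells, B cells and activated macrophages, in skin also by Langerhans cells, and their transcription depends on the co-activator Ciita. A/J and C3H mice carry the k alleles at I-A and I-E, while C57BL/6J mice carry the b haplotype, in which a deletion silences the I-E alpha chain gene H2-Ea. Tissue arrays measure a mixture of cells, so that fewer class II cells and less class II RNA per cell cannot be told apart.

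The promoters of class II genes share an X box, bound by the RFX complex, and a Y box, an inverted CCAAT sequence bound by NF-Y. The stretches that hold both boxes are shown because the 3 genes lay low together in irradiated lung. They were read from the RefSeq promoter table of build GRCm38.p6 and run 5′ to 3′ on the strand of the gene, with the letters searched for in capitals. They lie at chr17:34305755-34305827 on the plus strand for H2-Eb1, at chr17:34287852-34287924 on the minus strand for H2-Aa and at chr17:34238797-34238867 on the plus strand for H2-Ob.
H2-Eb1: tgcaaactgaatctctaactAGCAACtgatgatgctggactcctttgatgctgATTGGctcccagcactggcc
H2-Aa: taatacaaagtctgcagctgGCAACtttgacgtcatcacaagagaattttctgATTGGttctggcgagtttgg
H2-Ob: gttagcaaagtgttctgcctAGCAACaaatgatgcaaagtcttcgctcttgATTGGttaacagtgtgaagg
The search asked for AGCAAC followed by ATTGG on the same strand with 10 to 30 bases between them, on both strands, in the window from 250 bases before to 50 bases after each start. H2-Eb1 had this pair 27 bases apart and H2-Ob 25 bases apart, and 0.359% of 32851 promoters held it. H2-Aa had the pair only with the shorter core GCAAC, 28 bases before its ATTGG. The shorter core was tried after the sequence had been seen, and 1.03% of promoters held that pair. Other class II promoters were searched in the same way. Those of H2-Eb2 and H2-Oa, genes that were not measured, held the pair with AGCAAC. Those of H2-DMa, H2-DMb1 and H2-DMb2 held it with neither core. A match, or the lack of 1, is a description of the letters, not evidence on a bound site.

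The lung arrays did not form a single set. Of A/J and C3H/HeMs, the 4 arrays from 12 h and 72 h correlated with each other at 0.89 to 0.94 and with the other 8 lung arrays at 0.80 to 0.89, against 0.90 to 0.96 within those 8. Ratios of exactly 0 were deposited for 115 to 674 probes on these 4 arrays and for 1 to 23 on the others. The lung differences of the 3 genes at 12 h and 72 h are therefore also given without them. That leaves C57BL/6J as the only strain with 12 h and 72 h arrays. Most other lung values below are given only with these 4 arrays included. The tissue labels were borne out by marker genes. The mean of the lung epithelium genes was -5.13 to -4.42 in skin arrays and 2.01 to 3.41 in lung arrays, and that of the epidermis genes was 3.93 to 5.56 in skin arrays and -3.41 to -1.55 in lung arrays.

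H2-Eb1, the I-E beta chain, lay lower in irradiated lung in every strain at 12 h and 72 h. At 72 h it was at -2.88 (A/J), -1.25 (C57BL/6J) and -2.32 (C3H/HeMs), against -0.74, -0.16 and -0.91 in the controls of the same strains. At 12 h it was at -2.07, -1.12 and -1.38 in that order of strains, and at 1 h at -1.11, 0.01 and -1.0. All arrays of 12 h and 72 h thus lay below all controls, and those of 1 h overlapped the controls. The difference from control was -1.55 ± 0.22 at 72 h, a level 2.92-fold lower than in control lung, -0.92 ± 0.22 at 12 h and -0.10 ± 0.22 at 1 h (SE, from a limma fit of 12 arrays with strain as a block). H2-Eb1 was among the features with a limma adjusted p under 0.05 at 72 h, which is one of the values it was chosen by. It lost that call, with all other features, without the 4 arrays that stand apart, with those arrays as a block and with only the 72 h and control arrays in the fit.

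H2-Aa, the I-A alpha chain, lay lower by about the same amount at both late times. At 72 h it was at -1.92 (A/J), -1.20 (C57BL/6J) and -1.30 (C3H/HeMs), against -0.46, -0.44 and -0.51 in the controls. At 12 h it was at -1.68, -1.37 and -1.0 in that order of strains, and at 1 h at -0.61, -0.12 and -0.71. The controls of the 3 strains spread by 0.03 (SD), and every array of 12 h and 72 h lay below them. The difference from control was -1.0 ± 0.20 at 72 h, -0.88 ± 0.20 at 12 h and -0.01 ± 0.20 at 1 h (SE).

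H2-Ob, the beta chain of the B cell chaperone, was lowest at 12 h on average. It was then at -1.34 (A/J), -0.43 (C57BL/6J) and -0.86 (C3H/HeMs), against 0.35, 1.11 and 0.07 in the controls. At 72 h it was at -1.63, 0.34 and -0.29 in that order of strains, and at 1 h at 0.17, 0.49 and 0.17. All 12 h arrays lay below all controls, whereas at 72 h the C57BL/6J array, though below its own control, lay between the controls of A/J and C3H/HeMs. The difference from control was -1.38 ± 0.30 at 12 h, -1.03 ± 0.30 at 72 h and -0.23 ± 0.30 at 1 h (SE). The value at 72 h leaned on A/J, since it was -0.61 without the A/J array of that time.

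At 12 h all 3 genes were below their own control in every strain, as were 10.7% of all features, and all 3 had groups that did not overlap, as did 3.47% of all features. At 72 h all 3 were below their own control in every strain, as were 13.6% of features, and 2 of the 3 did not overlap, against 5.26% of features. At 1 h 0 of the 3 genes were below their own control in every strain, against 14.9% of features. By limma's adjusted p, 0.0114% of features passed at 1 h, 0.114% at 12 h and 0.114% at 72 h. Because the genes were chosen from this contrast, nothing is read from these shares.

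Without the 4 arrays that stand apart, the differences in lung at 12 h and 72 h kept their direction. For H2-Eb1 the difference from control was then -1.09 at 12 h and -1.22 at 72 h, and for H2-Aa it was -1.09 and -0.93. For H2-Ob it was -1.35 at 12 h, and -0.58 at 72 h. In C57BL/6J by itself, whose arrays belong to 1 set, the 12 h array was below the control array by 0.96 for H2-Eb1, 0.93 for H2-Aa and 1.54 for H2-Ob. Its 72 h array was below the control array by 1.09, 0.76 and 0.77 in that order of genes.

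**Figure D1:**
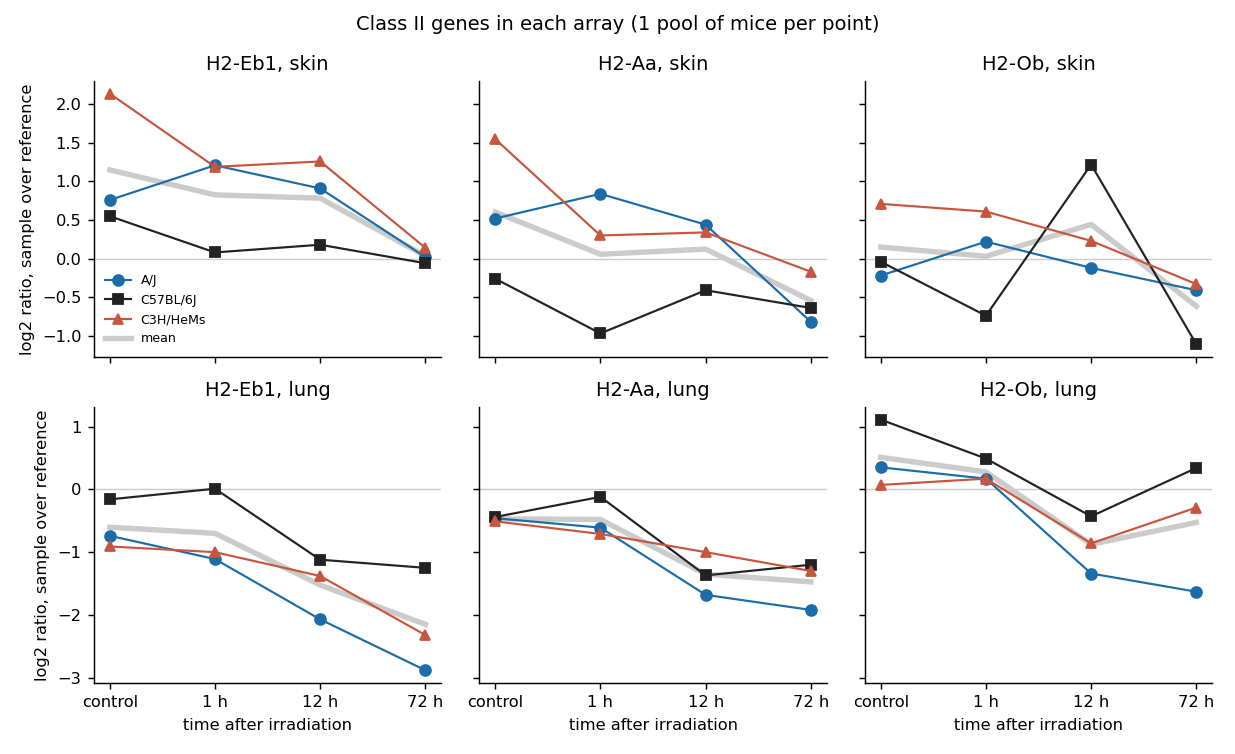
Log2 ratio of sample over reference for H2-Eb1, H2-Aa and H2-Ob (columns) in skin and lung (rows) against time after irradiation, 1 point per array and 1 line per strain, with the mean of the 3 strains in grey. In lung the 12 h arrays of all 3 genes lie below all controls, and in skin the 72 h arrays of H2-Eb1 lie together near the reference, between -0.06 and 0.14.

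In skin all 3 genes lay below their own control in every strain at 72 h, as did 15.4% of all features. H2-Eb1 was at 0.02 (A/J), -0.06 (C57BL/6J) and 0.14 (C3H/HeMs), against 0.76, 0.55 and 2.14 in the controls. The irradiated arrays therefore lay within a narrow range below all controls, while the controls spread by 0.86 (SD, n = 3). The difference was -1.12 ± 0.31 (SE). C3H/HeMs weighed heavily on this value, which was -0.67 without that strain.

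H2-Aa in skin at 72 h was at -0.82 (A/J), -0.64 (C57BL/6J) and -0.17 (C3H/HeMs), against 0.52, -0.26 and 1.55 in the controls. The groups overlapped through the low C57BL/6J control, and the difference was -1.15 ± 0.36 (SE). H2-Ob was at -0.41, -1.11 and -0.33 in that order of strains, against -0.22, -0.04 and 0.71 in the controls. Its groups did not overlap, and the difference was -0.77 ± 0.42 (SE). Groups that did not overlap downwards were thus found for 2 of the 3 genes, against 5.94% of all features. By limma 0 features passed at 72 h, which is 0% of those tested, with 647 at an unadjusted p under 0.05. Nothing about the 3 genes is read from these shares, since skin was among the values they were chosen by.

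At 12 h in skin, H2-Aa lay below its own control in every strain, and H2-Eb1 and H2-Ob in some. H2-Eb1 was at 0.91 (A/J), 0.18 (C57BL/6J) and 1.26 (C3H/HeMs), and H2-Aa at 0.44, -0.41 and 0.34 in that order, so that the C3H/HeMs array lay below its control by the most for both. The differences from control were -0.36 ± 0.31 for H2-Eb1 and -0.48 ± 0.36 for H2-Aa (SE). H2-Ob was at -0.12 (A/J), 1.22 (C57BL/6J) and 0.23 (C3H/HeMs), and the A/J and C57BL/6J arrays lay above their controls, A/J by 0.10 and C57BL/6J by 1.26. The difference of H2-Ob was 0.29 ± 0.42 (SE), and it was -0.34 without the C57BL/6J array.

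The C57BL/6J skin array of 12 h was also high in leukocyte markers. The mean of 14 B cell genes was -0.09 on it, against -1.43 in A/J and -1.52 in C3H/HeMs at 12 h and -1.16 to -1.11 in skin controls. That of 13 T and NK cell genes was 0.06, against -0.62 and -0.87 in the other strains at 12 h and -0.57 to -0.53 in controls. Ccr7, the chemokine receptor of migrating dendritic cells and lymphocytes, lay 3.53 above control on this array, with 0.90 in A/J and -0.11 in C3H/HeMs. The part of these cells in the H2-Ob value was not tested.

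At 1 h in skin, H2-Eb1 was at 1.21 (A/J), 0.08 (C57BL/6J) and 1.19 (C3H/HeMs), H2-Aa at 0.84, -0.97 and 0.30, and H2-Ob at 0.22, -0.74 and 0.61. In A/J all 3 genes lay above the control and in both other strains below it. The differences from control were -0.32 ± 0.31, -0.55 ± 0.36 and -0.12 ± 0.42 in the same order of genes (SE). At 1 h 0 of the 3 genes lay below their own control in every strain, against 18.2% of all features. At 12 h 1 of the 3, H2-Aa, did so, against 15.7%. By limma 0 features passed at 1 h and 0 at 12 h, 0% each, with 382 and 587 at an unadjusted p under 0.05.

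Between the tissues, H2-Eb1 was higher in skin, H2-Aa was higher but passed only under some settings, and H2-Ob did not pass the test. The difference between tissues was not a value the genes were chosen by. The control levels it rests on were among those values, which limits the p-values given here. H2-Eb1 averaged 1.15 ± 0.86 in control skin and -0.61 ± 0.39 in control lung (SD, n = 3 each), a difference of 1.75 ± 0.46 (SE, limma adjusted p = 0.00364). H2-Aa averaged 0.60 ± 0.91 in control skin and -0.47 ± 0.03 in control lung, a difference of 1.07 ± 0.40 (SE, limma adjusted p = 0.0277), which was 0.89 with an adjusted p of 0.0665 when arrays were not centred and 0.68 with an adjusted p of 0.183 without the C3H/HeMs skin control. H2-Ob averaged 0.15 ± 0.49 in control skin and 0.51 ± 0.54 in control lung, with a difference of -0.36 ± 0.44 (SE, limma adjusted p = 0.498). The median difference over all features was 0.24, and 58.1% of features passed. Skin was labelled with Cy5 and lung with Cy3, so tissue and dye cannot be told apart.

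Ordered by the mean level, the groups of H2-Eb1 ran from skin control (1.15 ± 0.86) through skin 1 h (0.83 ± 0.65), skin 12 h (0.78 ± 0.55), skin 72 h (0.03 ± 0.10), lung control (-0.61 ± 0.39), lung 1 h (-0.70 ± 0.61) and lung 12 h (-1.52 ± 0.49) to lung 72 h (-2.15 ± 0.83; SD, n = 3 for each). Neighbours within the first 3 groups, lung control and lung 1 h, and lung 12 h and lung 72 h did not differ beyond the spread of both. That spread is between strains and leaves out the pairing by strain. Within each strain H2-Eb1 in lung was lower at 72 h than at 12 h. H2-Aa ran from skin control (0.60 ± 0.91), skin 12 h (0.13 ± 0.46) and skin 1 h (0.06 ± 0.93) to lung control, lung 1 h and skin 72 h, which lay between -0.54 and -0.47, and ended with lung 12 h (-1.35 ± 0.34) and lung 72 h (-1.47 ± 0.39). Only the step down to lung 12 h exceeded the spread of both neighbours. H2-Ob ran from lung control (0.51 ± 0.54) through skin 12 h, lung 1 h, skin control, skin 1 h, lung 72 h (-0.53 ± 1.00) and skin 72 h (-0.62 ± 0.43) to lung 12 h (-0.87 ± 0.45), and no step exceeded the spread of both neighbours.

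Levels by strain are given as a description and were not tested. In lung, C57BL/6J was the highest strain for H2-Eb1, with a mean over its 4 arrays of -0.63 ± 0.65, beside -1.70 ± 0.97 in A/J and -1.40 ± 0.65 in C3H/HeMs (SD over 4 times). It was also the highest for H2-Ob, at 0.38 ± 0.63 beside -0.61 ± 1.02 in A/J and -0.23 ± 0.46 in C3H/HeMs. H2-Aa in lung was at -0.78 ± 0.60 in C57BL/6J, -1.17 ± 0.74 in A/J and -0.88 ± 0.35 in C3H/HeMs. Its controls were nearly equal, at -0.44, -0.46 and -0.51. The lung means of A/J and C3H/HeMs include the arrays that stand apart, and those of C57BL/6J do not. Strain and array set therefore cannot be told apart in these means. In skin, C57BL/6J was instead the lowest strain for H2-Eb1 (0.19 ± 0.26, beside 0.73 ± 0.51 in A/J and 1.18 ± 0.82 in C3H/HeMs) and for H2-Aa (-0.57 ± 0.31, beside 0.24 ± 0.73 and 0.51 ± 0.73). C57BL/6J carries the b haplotype, and A/J and C3H/HeMs share the k alleles at I-A and I-E. Each probe is a single cDNA. Between C57BL/6J and the other strains, a difference in transcript and one in hybridisation therefore cannot be told apart.

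Of the class II pathway, 15 genes were measured, among them the 3 described. Of the other 12, 0 passed limma's adjusted p in either tissue at any time. At an unadjusted p under 0.05, lung had 0, 4 and 1 of them at 1 h, 12 h and 72 h, and skin had 0, 1 and 2, while of all 8750 features lung had 196, 1055 and 1085 and skin 382, 587 and 647. Their median change was 0.15 in lung at 12 h, -0.02 in lung at 72 h and -0.21 in skin at 72 h, beside 0.07, 0.05 and -0.01 over all features. Without the 4 lung arrays that stand apart, the median at 12 h was -0.15. Cd74, the invariant chain that guards the peptide groove of new class II molecules, lay below control in every strain, with differences of -0.62 ± 0.21 in lung at 12 h, -0.68 ± 0.21 in lung at 72 h and -1.26 ± 0.41 in skin at 72 h (SE, limma adjusted p = 0.365, 0.341 and 0.664). H2-DMa, the alpha chain of the peptide exchange factor H2-M, differed from control by -0.33 ± 0.16, -0.29 ± 0.16 and -1.11 ± 0.42 in the same comparisons (SE), the last led by -2.71 in C3H/HeMs. H2-DMa also lay below control in every strain in each of these comparisons. Its partner H2-DMb1 differed by 0.12, 0.06 and -0.40.

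The probe annotated as H2-Ea, the I-E alpha chain that pairs with H2-Eb1, may not measure this gene, since C57BL/6J, in which the gene is silenced, was not set apart on it. It differed by 0.27 ± 0.22 in lung at 12 h, 0.39 ± 0.22 in lung at 72 h and -0.40 ± 0.27 in skin at 72 h (SE). In lung this probe lay above control in A/J and C3H/HeMs and below it in C57BL/6J. The co-activator Ciita lay lower in lung at 12 h, with differences of -1.77 (A/J), -0.18 (C57BL/6J) and -0.46 (C3H/HeMs). The fitted difference was -0.80 ± 0.29 (SE, limma adjusted p = 0.366), and -0.44 ± 0.29 at 72 h. By strain the 72 h differences were -0.91, -0.01 and -0.40 in that order. In skin at 72 h Ciita was at -0.30, -0.42 and -0.87, against -0.47, -0.08 and -0.21 in the controls, so A/J lay above its control. Of its promoter partners, Rfxank, a subunit of RFX, differed by 0.39 in lung at 12 h, 0.23 in lung at 72 h and -0.43 in skin at 72 h. Nfyb, a subunit of NF-Y, differed by 0.60, 0.39 and 0.71, and Nfya, another subunit, by -0.07, -0.10 and -0.14. Creb1, which also binds class II promoters, differed by 0.24, 0.31 and 0.01. Of the proteases that prepare peptides and trim Cd74, Ctss differed by -0.30, -0.33 and -0.08, Ctsl by 0.18, -0.16 and 0.04, and Ctsb by 0.27, 0.08 and 0.25. Ctss in lung at 72 h lay below control in every strain. Nfyb in lung differed by 1.0 (A/J), 0.03 (C57BL/6J) and 0.79 (C3H/HeMs) at 12 h. At 72 h Nfyb in lung differed by 0.68, -0.15 and 0.63 in that order of strains. Creb1 in lung differed by 0.65, -0.01 and 0.08 at 12 h and by 0.51, 0.11 and 0.32 at 72 h. The A/J and C3H/HeMs lung arrays of these times are those that stand apart. In skin at 72 h Ctsl differed by 1.04 in C3H/HeMs and -0.68 in C57BL/6J, and Ctsb by 1.2 and -0.59, so the strains went opposite ways.

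**Figure D2:**
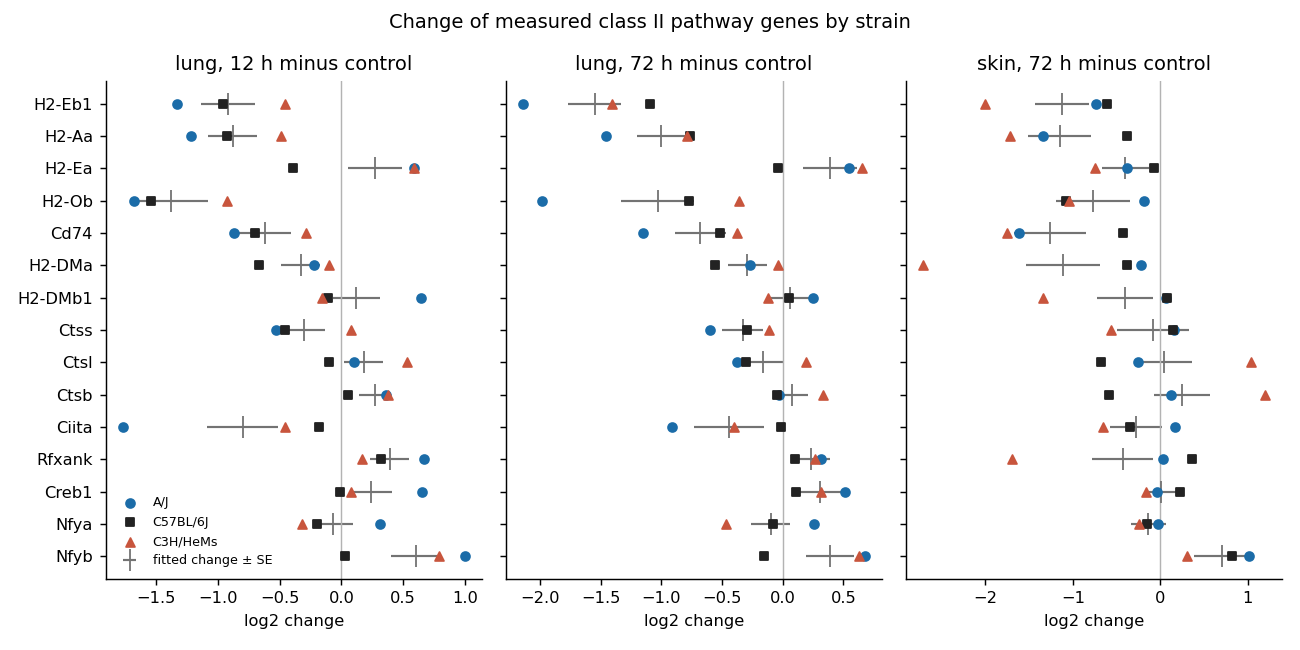
Log2 change from control of 15 measured class II pathway genes in lung at 12 h, lung at 72 h and skin at 72 h, with 1 point per strain and the fitted change ± SE. H2-Eb1, H2-Aa, H2-Ob, Cd74 and H2-DMa lie left of 0 in all 3 strains in each panel, while Ctsb, Creb1 and Nfyb do not.

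The 3 genes lie beside each other on chromosome 17 in the order of measured genes, inside the MHC. Of 23 measured genes in this stretch, 17 belonged to no class II list. Their median change was 0.04 in lung at 12 h, 0.13 in lung at 72 h (range -0.86 to 0.68) and -0.33 in skin at 72 h (range -0.80 to 0.48). Below control in every strain were 2 of the 17 at 12 h and 1 at 72 h in lung, and 3 at 72 h in skin, against 10.7%, 13.6% and 15.4% of all features. The lowest at 72 h in lung was BC051537, at -0.86.

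**Figure D3:**
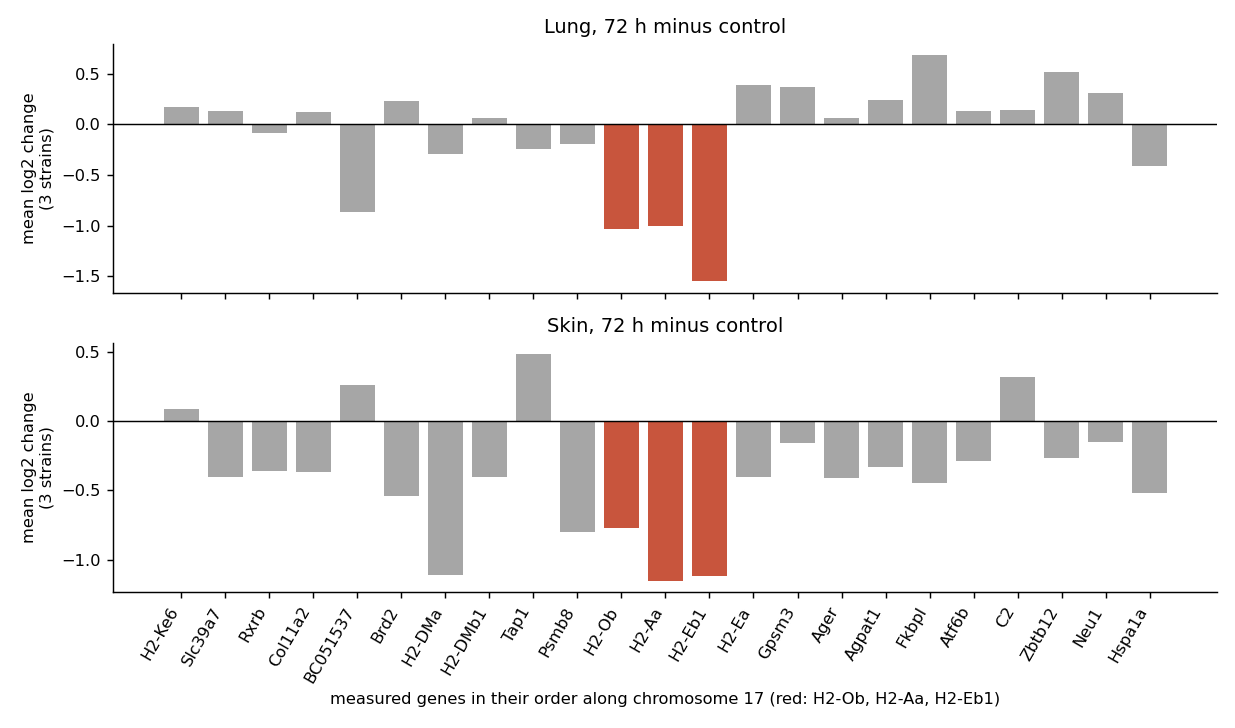
Mean log2 change from control over 3 strains of 23 measured genes in their order along chromosome 17, at 72 h in lung (upper panel) and at 72 h in skin (lower panel), with H2-Ob, H2-Aa and H2-Eb1 in red. In lung the 3 red bars are the 3 lowest of the stretch, while in skin H2-DMa and Psmb8 reach the same range.

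Markers of the cells that carry class II were set beside these values, and 0 of them passed limma's adjusted p at any time in either tissue. At an unadjusted p under 0.05 there were 6 of 14 B cell, 4 of 12 dendritic cell, 0 of 11 macrophage and 6 of 13 T and NK cell genes in lung at 12 h, and 5, 5, 1 and 2 at 72 h, beside 1055 and 1085 of all 8750 features. The mean of 14 B cell genes was -1.12 to -0.96 in lung at 12 h and -1.08 to -0.62 at 72 h, against -0.61 to -0.20 in control lung, so the arrays of both late times lay below all controls, that of C57BL/6J at 72 h narrowly. The median change of the B cell genes was -0.44 at 12 h and -0.31 at 72 h. Cd79b, a signalling chain of the B cell receptor, differed by -1.06 ± 0.26 at 12 h and -0.94 ± 0.26 at 72 h (SE, limma adjusted p = 0.289 and 0.337). Cd79a, its partner, differed by -1.51 ± 0.38 at 12 h (SE, limma adjusted p = 0.302).

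The mean of 12 dendritic and Langerhans cell genes was 0.36 to 0.42 in lung at 12 h and 0.05 to 0.25 at 72 h, against 0.43 to 0.64 in control lung. The median change of these genes was -0.01 at 12 h and -0.42 at 72 h. Ccl22, a chemokine of mature dendritic cells, differed by -1.17 ± 0.25 at 72 h (SE, limma adjusted p = 0.244), and Ccr7 by -0.69 ± 0.18 at 12 h (SE, limma adjusted p = 0.302). Ly75, an uptake receptor of dendritic cells named here after its values were seen, lay above control in every strain at 12 h, with a difference of 0.37 ± 0.16 (SE, limma adjusted p = 0.402). The mean of 11 macrophage and monocyte genes was 0.49 to 0.55 at 12 h and 0.33 to 0.56 at 72 h, against 0.31 to 0.54 in control lung, so these groups overlapped. The mean of 13 T and NK cell genes, cells that in mice do not carry class II, was -1.28 to -0.44 at 12 h and -0.94 to -0.27 at 72 h, against -0.65 to -0.23 in control lung. The T and NK cell list overlapped its controls but was below its own control in every strain at 12 h, and its median change was -0.57 at 12 h and -0.22 at 72 h. By the list means, B cell and dendritic cell markers at 12 h and 72 h and T and NK cell markers at 12 h thus lay low, as did the 3 genes. The dendritic cell mean at 12 h was below all controls only narrowly, and 7 of its 12 genes had a difference below 0. The mean of the B cell genes was below its own control in every strain already at 1 h, at -0.85 to -0.41. At that time 8 of the 14 B cell genes lay below their own control in every strain, against 14.9% of all features. Of the 3 class II genes 0 did so, and with 3 genes and that share nothing is read from it. In skin at 1 h, 9 of the 14 B cell genes lay below their own control in every strain, against 18.2% of all features. The part of any cell type in the class II values was not tested.

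In skin at 72 h the mean of the B cell genes was -1.74 to -1.09, against -1.16 to -1.11 in control skin, and that of the dendritic and Langerhans cell genes 0.74 to 0.91, against 0.41 to 1.15. The macrophage and monocyte genes were at 0.36 to 0.64, against -0.08 to 0.53. All of these groups overlapped with their controls. The mean of 6 epidermis genes was 5.13 to 5.56, against 4.61 to 5.12 in control skin. It thus lay above all controls, that of C57BL/6J narrowly. The median change of these genes was 0.74, with 3 of 6 at an unadjusted p under 0.05. The part of the epidermis in the class II values was not tested.

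**Figure D4:**
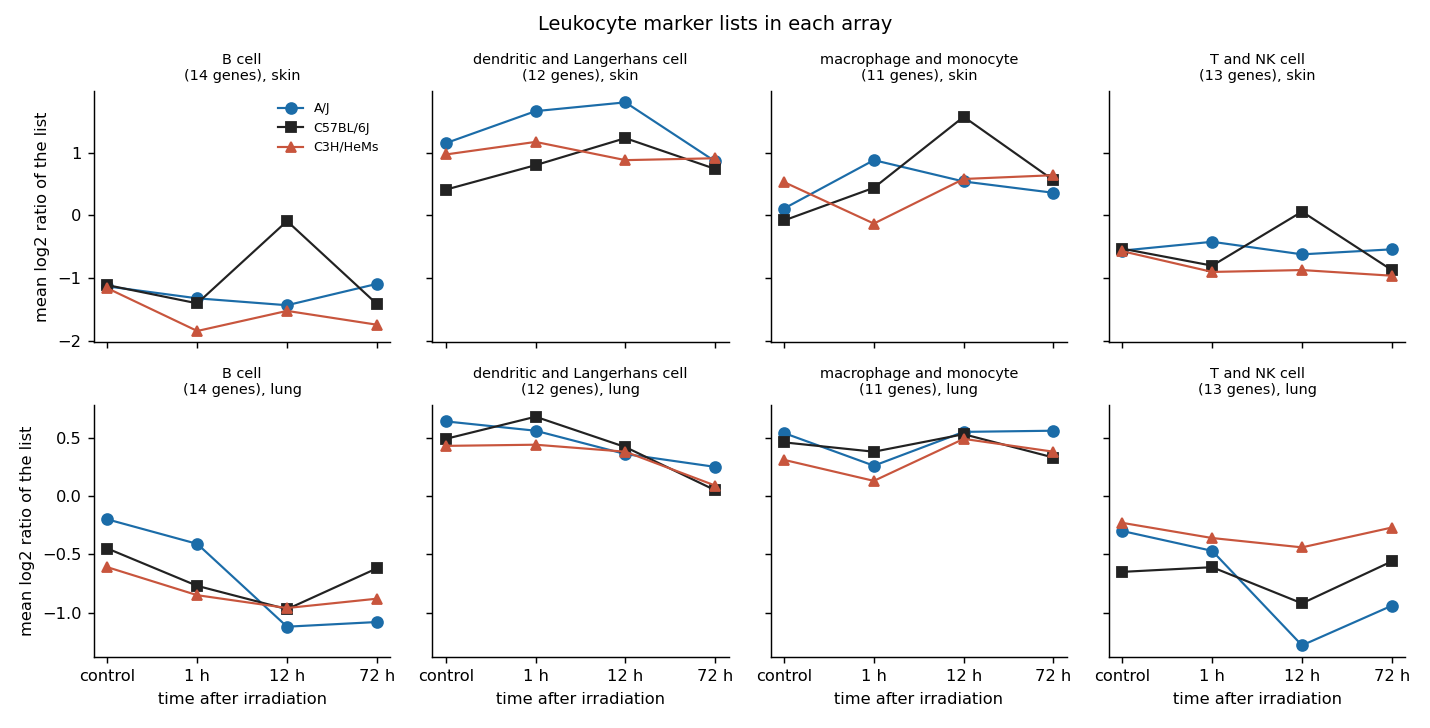
Mean log2 ratio of sample over reference of 4 leukocyte marker lists (columns) in skin and lung (rows) against time after irradiation, 1 point per array and 1 line per strain. In lung the B cell list is below all controls at 12 h and 72 h, and in skin the C57BL/6J array of 12 h stands above the other strains in the B cell, macrophage and T cell lists.

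The genes whose levels ran most like each member were looked for over the 12 arrays of a tissue, after each strain's mean had been subtracted. These correlations are a description, since arrays of a time share its irradiation and 1 reference. In lung, H2-Eb1 ran most like the probe annotated Tor2a (r = 0.96), which may not measure that gene, and H2-Aa (0.95), and H2-Aa most like Tor2a (1.00) and Cd74 (0.98). H2-Ob ran instead most like Mcm2 (0.97), a subunit of the replication helicase, Ccr7 (0.95) and Cd79a (0.94). In skin, H2-Eb1 ran most like Tor2a (0.96), H2-DMa (0.94) and H2-Aa (0.91), and H2-Aa most like Cd74 (0.98) and Tor2a (0.98). H2-Ob in skin was closest to Cpt2 (0.93), a mitochondrial enzyme of fatty acid breakdown.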

How the data were processed

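Deposited by the authors were log10 ratios (Cy5 over Cy3) of 24 arrays, from Agilent Feature Extraction per the submitters' processing notes. Its version, background and dye steps are not given in the sources used here. Lung RNA carried Cy3 per the labels, so lung ratios were turned in sign. Ratios were multiplied by 3.32 to log2 and centred on each array's median. Names came from a platform annotation of 2007, in which 6433 of 9275 probes had a single symbol. Probes of a gene were averaged into 8750 features. limma 3.58.1 in R 4.3.3 was fitted per tissue to 12 arrays with strain as a block (6 residual degrees of freedom), and to 24 arrays for skin against lung (14), with Benjamini-Hochberg adjustment over all features and a threshold of 0.05. The fit was tested on simulated data. The members were chosen partly on skin, so the skin contrasts planned as tests are described without p. The members, gene lists and tests were chosen with earlier results of these data known. Named from the lists are the members, all measured class II pathway genes, and Cd79a, Cd79b, Ccr7, Ccl22 and Ly75 of the B cell and dendritic cell lists. Genes of the macrophage and of the T and NK cell lists are not named. The MHC class I, pan-leukocyte and interferon gamma response lists were also fitted and are not described here. Some of the genes most like each member are named as well. The replicate number is the strain, so the block is part of the design. Deviations of arrays within a strain correlated at -0.05 to 0.71 in lung and -0.05 to 0.68 in skin. Alternatives were quantile normalization, no centring, other samples in the fit, a block for the 4 lung arrays that stand apart, and leaving out arrays. The number of arrays limits the precision.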

Additional observations from a re-analysis of the deposited data

How the results depend on the processing

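Of 429 values of the 3 genes under an alternative, 417 were counted as the same. Another 6, of the skin minus lung difference of H2-Aa, lost the threshold, and 6 skin values turned in sign. Skin values and skin minus lung differences were compared in direction and threshold. Lung differences and strain levels counted as the same when they moved by less than their spread over strains or times, whatever their sign. With 1 array left out, H2-Eb1 in lung at 1 h thus reached 0.12 and H2-Aa 0.18, beside -0.10 and -0.01 in the full fit. Counted as turned was H2-Eb1 in skin at 1 h, at 0.02 without the C3H/HeMs control, with a lowest of -0.71 without A/J. So was H2-Ob in skin at 1 h, at 0.28 and 0.05 without the C57BL/6J 1 h array and the C3H/HeMs control and at 0.17 without C57BL/6J. H2-Ob in skin at 12 h was -0.34 without the C57BL/6J array and -0.19 without that strain. The skin minus lung difference of H2-Aa was 1.07 (adjusted p = 0.0584) over the 6 controls alone, 0.89 (0.0665) without centring and 0.68 to 1.43 with 1 array left out. The range of H2-Ob over the leave-out fits was -0.40 to 0.28 in skin at 1 h and -0.34 to 0.64 at 12 h. The median of the other class II genes was -0.09 in lung at 12 h with the array set as a block and -0.15 without the 4 arrays, and 0.06, 0.06 and 0.03 in skin at 12 h without A/J 12 h, the C3H/HeMs control and C3H/HeMs, with a lowest of -0.14. That of the T and NK cell genes ran from -0.17 to 0.08 in lung at 1 h, the highest without the A/J control, and from -0.34 to 0.01 in skin at 72 h, the highest without the C57BL/6J array. Features called in lung numbered 0 at each time with only the groups compared and without the 4 arrays, 6 at 12 h and 0 at 72 h with the array set as a block, and 6 at 72 h with no replicate block, beside 1, 10 and 10, so that H2-Eb1 at 72 h lost its call wherever 0 were called. With 1 array left out they numbered 0 to 1, 6 to 10 and 2 to 8, and 0 to 1 in skin at each time; with 1 strain left out 0, 0 to 6 and 0 to 1. Leaving out a strain was added after seeing the data. Each gene had 1 probe, so probes could not be set against each other.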

Other observations

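The probe annotated as Tor2a, a torsin ATPase gene, ran almost exactly with that of H2-Aa, and may not measure Tor2a, which was not tested. Over the 12 arrays of a tissue, after each strain's mean had been subtracted, the correlation was 0.996 in lung and 0.978 in skin. The Tor2a probe differed from control by -0.72 in lung at 12 h, -0.84 in lung at 72 h and -1.04 in skin at 72 h.

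The H2-Ea probe gave a log2 ratio of -1.33 ± 0.18 in C57BL/6J lung, beside -0.98 ± 0.35 in A/J and -1.01 ± 0.36 in C3H/HeMs (SD over 4 times). The 4 lung arrays of A/J and C3H/HeMs that stand apart were at -0.73 to -0.66, and the other 8 lung arrays at -1.6 to -1.22. In skin it was at -0.15 ± 0.26 in C57BL/6J, -0.54 ± 0.25 in A/J and -0.22 ± 0.45 in C3H/HeMs. C57BL/6J, the strain in which this gene is silenced, was thus not set apart from the others on this probe, which may not measure H2-Ea.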
